A study of Mus musculus with 12 samples.

Results

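NF-κB is a family of transcription factors built from 5 subunit genes (Rel, Rela, Relb, Nfkb1 and Nfkb2) and held in check by IκB proteins. The 5 IκB genes examined with them encode 3 classical inhibitors (Nfkbia, Nfkbib and Nfkbie) and 2 nuclear IκB proteins (Nfkbiz and Bcl3). These 10 genes were taken by symbol from 55335 genes listed in each library, and all 10 passed the filter on low counts that left 14008 genes for testing. RNA had been sequenced from bone marrow-derived dendritic cells (BMDCs) of C57BL/6 mice of both sexes, 8 to 12 weeks old. Bone marrow was cultured with GM-CSF for 6 days, and CD11c+ cells were then selected. All 4 groups, each of 3 replicates, carried the Rosa26-CreER transgene, a tamoxifen-inducible Cre recombinase expressed broadly. WT was CreER without LPS and WTL was CreER with LPS at 100 ng/ml for 3 h. KO was CreER;CTCF fl/fl, in which the loxP-flanked Ctcf alleles were removed with 4-hydroxytamoxifen on the first day of culture, and KOL was the same genotype with LPS. The sources used here do not state clearly whether WT cultures received 4-hydroxytamoxifen, and if they did not, its effect and that of CTCF depletion cannot be told apart. CTCF is a DNA-binding protein that, with cohesin, holds chromatin loops in place.

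In resting cells, NF-κB dimers are kept in the cytoplasm by classical IκB proteins. LPS, a component of the bacterial outer membrane, activates the receptor TLR4, whose signal through the IKK kinase complex marks IκB proteins for degradation, and freed dimers enter the nucleus. Nfkbia is itself a target of NF-κB, so that new IκBα ends the response, whereas IκBζ and Bcl-3, encoded by Nfkbiz and Bcl3, act in the nucleus with p50 or p52 dimers on selected genes. RNA levels describe the supply of these proteins and not the degradation or nuclear entry by which the pathway is switched on. In bulk RNA, fewer cells that express a gene and less RNA per cell cannot be told apart.

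Library totals were 12769773 to 16586334 expected counts. Ctcf was 975 to 1051 normalized counts in WT, 745 to 886 in WTL, 516 to 569.7 in KO and 526 to 563 in KOL, so that Ctcf RNA was lower in the CTCF-deficient libraries but present (KO against WT, log2 fold change -0.87, adjusted p = 3.94e-07). These counts cover the whole gene, including what lies outside the deleted part. Normalized counts are scaled to a common library size with edgeR's TMM factors. The dendritic cell markers were present in every group, with summed TPM of 7062 to 7558 in WT, 7253 to 10290.3 in WTL, 5768 to 6051 in KO and 8165 to 12608 in KOL, although Flt3 was low (0.6 to 4.1 TPM). Of these 7 markers, 1 was higher and 2 were lower in KO than in WT, and 3 were higher and 2 lower in KOL than in WTL. The shares of all genes tested were 22.2% higher and 22.4% lower in KO, and 21.4% and 23.3% in KOL. Of the other cell types, the 8 neutrophil markers summed to 374 to 397 TPM in WT and 192 to 224 TPM in KO, and to 346 to 440.1 in WTL and 287 to 336 in KOL. Of the 6 neutrophil markers tested, 5 were lower in KO than in WT (median log2 fold change -1.66) and 4 were lower in KOL than in WTL (median -0.98). Most of the sum was S100a8 and S100a9, while the defining neutrophil markers Ly6g and Elane were at 1.8 TPM or below in every library. The summed TPM of B cell markers did not exceed 7.01 in any library, that of T and NK cell markers 3.79, and that of mast cell and basophil markers 0.79. The 7 macrophage and monocyte markers summed to 1167 to 1253 TPM in WT and 1302 to 1346 in KO, and to 1072 to 1259 in WTL and 1109 to 1301 in KOL. In KO against WT, 2 of these 7 were higher (Ly6c2 and Csf1r) and 4 lower (Adgre1, Mertk, Fcgr1 and Cd14), and in KOL against WTL, Ly6c2 was higher and Mertk and Fcgr1 were lower. The 4 eosinophil markers summed to 12.6 to 15.1 TPM in WT and 19.8 to 24.6 in KO, and to 5.49 to 11.03 in WTL and 7.77 to 11.5 in KOL, and Siglecf and Ccr3 were higher in both comparisons of genotypes, with Ccr3 at 0.42 TPM or below and Epx at 0.36 TPM or below in every library.

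Single LPS libraries lay up to 0.63 log2 units from the mean of the other replicates in these 10 genes, and unstimulated libraries up to 0.15. In WTL replicate 1, Rela was 0.56, Relb 0.48, Bcl3 0.63, Nfkbib 0.38 and Nfkbia 0.37 log2 units below the mean of the other replicates, and Rel was 0.25 above it. In KOL replicate 2, Rela was 0.40, Relb 0.33, Bcl3 0.43, Nfkbib 0.37 and Nfkbia 0.33 below and Rel 0.23 above. KOL replicate 1 lay on the other side, with Rela 0.31, Relb 0.27, Bcl3 0.42, Nfkbib 0.30 and Nfkbia 0.24 above the mean of the other replicates. Of the 10 genes, 6 had their lowest level of the group in WTL replicate 1, 6 had it in KOL replicate 2, and 8 had their highest in KOL replicate 1. The annotated transcripts of Rel hold 42.5% G and C, the lowest share of the 10, and those of Rela, Relb, Nfkb2, Bcl3 and Nfkbib hold 58.8% to 59.8%. Across 13999 genes, the correlation of a library's deviation from its group with GC content was -0.37 in WTL replicate 1 and -0.14 in KOL replicate 2, and 0.19, 0.25, 0.21 and -0.04 in the other LPS libraries, as a description across genes. In unstimulated libraries it ran from -0.14 (WT replicate 1) to 0.17 (WT replicate 2). The correlation with log2 transcript length was 0.18 in WTL replicate 1 and 0.21 in KOL replicate 2. In the other LPS libraries it was -0.06, -0.15, -0.10 and -0.17. The part of GC content in the results was not tested beyond a fit with an offset for GC content and length. The comparisons with LPS are given below also without WTL replicate 1 and KOL replicate 2, a pair chosen after seeing these values. Because the pair was picked by the deviations of these genes, leaving it out narrows their spread. Smaller adjusted p-values in those fits therefore add no support to a call. KOL replicate 1, which lay on the other side, was kept in them.

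**Figure D1:**
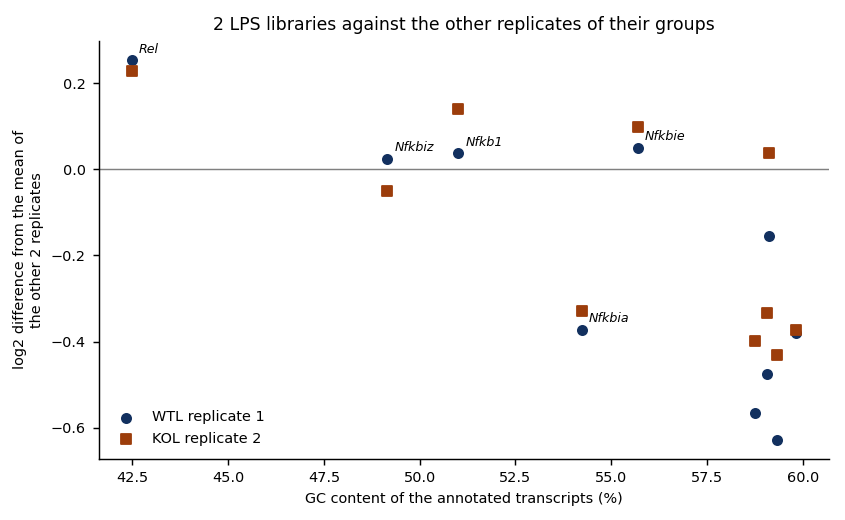
Difference of WTL replicate 1 (circles) and KOL replicate 2 (squares) from the mean of the other 2 replicates of their groups, on the log2 scale, for each of the 10 genes against the GC content of its annotated transcripts in percent. Rel, at 42.5%, lies above 0 in both libraries (0.25 and 0.23), and the genes at 58.8% or more lie below it, except Nfkb2 in KOL replicate 2 (0.04).

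DNA bound by NF-κB holds variants of a decamer called the κB site, and a family that regulates its own transcription may carry it in its promoters. RefSeq promoter windows on GRCm38.p6, from 250 bases before to 50 bases after a transcription start, were matched for 7 of the 10 genes; Relb, Nfkb1 and Nfkbiz were not matched. The κB consensus decamer, searched on both strands, occurred in a window of 5 of these 7 genes (71.4%), compared with 5.14% of 27025 genes with a window. The matches are shown because they set the genes with a κB decamer beside the start site apart from Rela and Nfkbib, in whose windows none was found. Each stretch is written 5′ to 3′ on the strand of the gene, with the matched bases in capitals, and positions count from the start site.
Nfkbia, chr12:55492657-55492686, minus strand, position -29: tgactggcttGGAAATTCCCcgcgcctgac
Rel, chr11:23771042-23771070, minus strand, position -92: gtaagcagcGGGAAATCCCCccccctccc
Nfkb2, chr19:46304689-46304717, plus strand, position -39: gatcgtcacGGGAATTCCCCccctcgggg
Nfkb2, second window, chr19:46305695-46305724, plus strand, position 11: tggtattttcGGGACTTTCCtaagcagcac
Nfkbie, chr17:45555584-45555613, plus strand, position -106: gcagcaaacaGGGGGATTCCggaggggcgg
Bcl3, chr7:19822734-19822763, minus strand, position 3: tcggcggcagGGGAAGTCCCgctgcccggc
In Rel and in the first Nfkb2 stretch, matches on both strands overlap and cover 11 bases. Nfkb2 had further matches at -11 and, in the second window, at -236. A match is a description of these letters and not a site shown to be bound, and the absence of one says nothing of binding outside the window.

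TPM, which corrects for transcript length and can be compared between genes, ranked Nfkbia first and Nfkb1 next in all 4 groups. In WT, the inhibitor gene Nfkbia was at 282 ± 11.8 TPM (SD, n = 3), Nfkb1, which encodes p105 and p50, at 182 ± 8.93, and Nfkb2, which encodes p100 and p52, at 90.8 ± 2.02. Relb followed at 81.8 ± 2.42 TPM, without overlap with its neighbours in this order. Nfkbib (57.3 to 63.8 TPM) came next and overlapped only with Rel (54.0 to 58.5). Rela (49.4 to 56.2 TPM) overlapped with Rel and with Nfkbie (51.7 to 52.8), whereas Nfkbib lay above both Rela and Nfkbie, and Rel above Nfkbie. The nuclear IκB genes were lowest, Bcl3 at 33.3 ± 2.08 and Nfkbiz at 23.0 ± 1.96 TPM. Among all 55335 genes by mean TPM in WT, Nfkbia ranked 438 and Nfkbiz 4668.

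In WTL, the order of Nfkbia (1076 ± 165 TPM), Nfkb1 (406 ± 16.8) and Nfkb2 (244 ± 10.2) was unchanged, and Nfkbiz had moved from the last to the fourth place (163 ± 11.7). Rela, Rel and Relb, the subunits with a transactivation domain, had overlapping ranges of 58.1 to 104 TPM. In KO, Nfkbiz was lowest at 7.28 ± 0.36 TPM. In KOL it reached the eighth place (68.9 ± 4.43 TPM), and its range overlapped that of Rel (73.7 ± 6.18).

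The precursor genes took a larger share of the subunit RNA in WTL than in WT. Of the summed subunit TPM, Nfkb1 held 39.3% ± 0.719 in WT and 46.0% ± 0.759 in WTL, and Nfkb2 held 19.6% ± 0.826 and 27.6% ± 1.12. Relb held 17.7% ± 0.0735 in WT and 9.85% ± 1.63 in WTL, Rel 11.99% ± 0.399 and 8.24% ± 1.11, and Rela 11.4% ± 0.465 and 8.23% ± 1.38, without overlap between the libraries of WT and WTL for any of the 5. In KO and KOL, Nfkb1 held 41.8% ± 0.490 and 47.9% ± 0.911, and Nfkb2 21.5% ± 0.316 and 22.9% ± 0.638. Nfkb2 TPM per Relb TPM, the pair of the alternative pathway, was 1.06 to 1.15 in WT, 2.36 to 3.57 in WTL, 1.46 to 1.503 in KO and 1.80 to 2.35 in KOL. The summed TPM of the classical inhibitors per summed TPM of subunits was 0.853 ± 0.0311 in WT and 1.497 ± 0.167 in WTL, and 0.908 ± 0.0205 in KO and 1.46 ± 0.152 in KOL. In either genotype, this ratio was higher in every LPS library than in every unstimulated library. These shares and ratios are descriptions with no test. TPM divides by the transcript length that RSEM estimated. For Nfkb2 this length was 2974 to 3006 bases in WT and 2291 to 2563 in WTL, shortest in WTL replicate 1. Its shares and ratios therefore depend on that estimate.

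**Figure D2:**
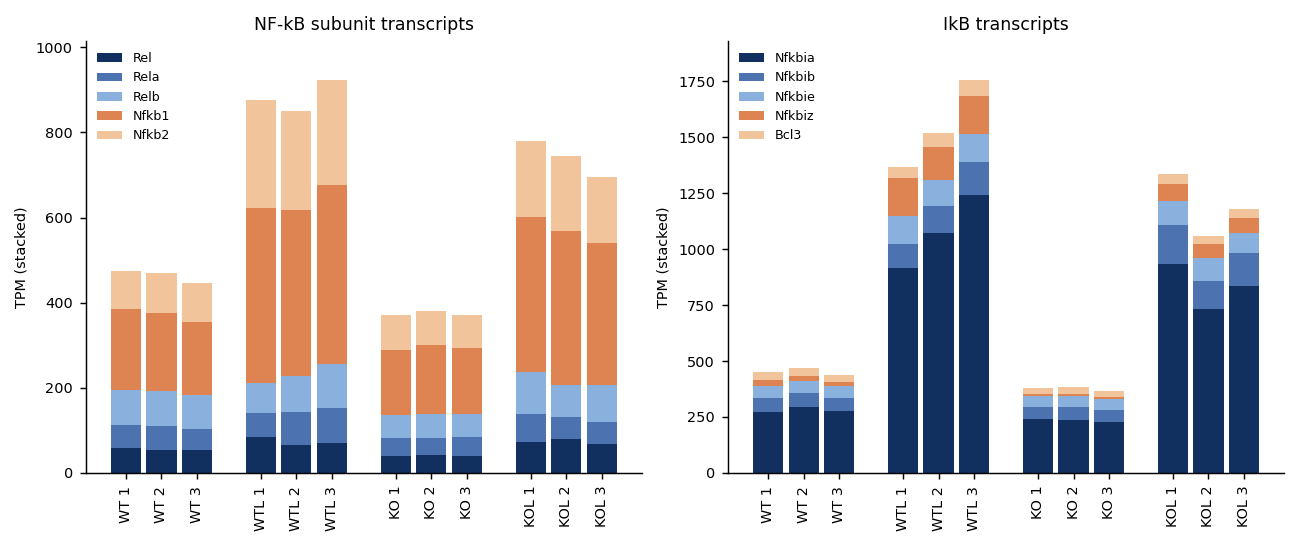
TPM of the 5 subunit genes (left) and the 5 IκB genes (right), stacked within each of the 12 libraries; the vertical axes are TPM and each bar is 1 library. The subunit bars reach 446 to 475 TPM in WT and 850 to 923 in WTL, 370 to 381 in KO and 696 to 780 in KOL, and Nfkbia forms most of every bar on the right.

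LPS raised the RNA of all 10 genes in WT cells, compared with 30.0% of the 14008 genes tested that were higher and 30.2% that were lower in WTL (14.5% and 60.1% with library totals as the scale). The rise exceeded 2-fold for 8 of the 10 (12.6% of all genes tested), all but Rel and Relb. The median log2 fold change of the 10 was 1.66, with a range of 0.66 to 3.38, and that of all genes tested was -0.02.

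Nfkbiz, the inducible nuclear IκBζ, showed the steepest rise. Its normalized counts were 839.6, 803 and 741 in WT and 8347, 8034 and 8381 in WTL. The groups did not overlap, and the difference was 10.4-fold (log2 fold change 3.38, SE 0.07, adjusted p = 9.41e-14). The second nuclear IκB gene, Bcl3, whose product binds p50 and p52 dimers, was at 354, 385 and 356 in WT and at 844, 1324 and 1284 in WTL. WTL replicate 1 was the low library of Bcl3, and the rise was 3.16-fold (log2 fold change 1.66, SE 0.16, adjusted p = 4.95e-07).

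The classical inhibitors rose together. Nfkbia went from 3365, 3665 and 3308 to 15779, 19928 and 20921 normalized counts, 5.48-fold (log2 fold change 2.45, SE 0.12, adjusted p = 1.95e-10). Nfkbie, which encodes IκBε, a slower feedback inhibitor, went from 1228, 1276 and 1249.8 to 4274, 4122 and 4134 (log2 fold change 1.74, SE 0.07, adjusted p = 2.9e-11). Nfkbib, which encodes IκBβ, went from 681, 692 and 645 to 1663, 2078 and 2252 (log2 fold change 1.57, SE 0.12, adjusted p = 4.19e-08). Replicates of Nfkbie differed little in WTL, whereas those of Nfkbia and Nfkbib were lowest in WTL replicate 1.

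The precursor genes rose by nearly the same amount on the log2 scale. Nfkb1 was at 4593, 4473 and 4391 in WT and at 14436, 14283 and 13864 in WTL (log2 fold change 1.66, SE 0.06, adjusted p = 2.17e-11). Nfkb2 was at 2521, 2681 and 2668 in WT and at 7664, 8679 and 8388 in WTL (log2 fold change 1.65, SE 0.07, adjusted p = 4.76e-11). The subunits with a transactivation domain rose less. Rela, the main activating subunit of the classical pathway, went from 1105, 1122 and 1039.7 to 1711, 2527 and 2536 (log2 fold change 1.05, SE 0.14). Rel, which encodes c-Rel, a subunit enriched in lymphoid and dendritic cells, went from 4341, 4128 and 4139 to 8884, 7572 and 7328 (log2 fold change 0.92, SE 0.09). Relb, the partner of p52, went from 1637, 1709.9 and 1614 to 2070.2, 2733 and 3031 (log2 fold change 0.66, SE 0.12, adjusted p = 0.000317). None of these groups overlapped in normalized counts, although the share of all genes tested without overlap was not counted.

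The rise of Relb depended on the scale. With library totals in place of TMM it was 0.15 (adjusted p = 0.296) and with limma on log2(TPM + 1) it was 0.07 (adjusted p = 0.638), and its TPM in WT (79.1 to 83.5) lay within that in WTL (70.8 to 104). Scaling by library totals placed the median of all genes at -0.53 and that of the 10 genes at 1.15. With WTL replicate 1 and KOL replicate 2 both left out, Relb rose by 0.80, Rela by 1.22, Nfkbib by 1.69, Bcl3 by 1.84 and Nfkbia by 2.57, and the other 5 by 0.83 to 3.37. The other 9 rises held under each of 11 alternative fits and each of 6 fits without 1 library.

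**Figure D3:**
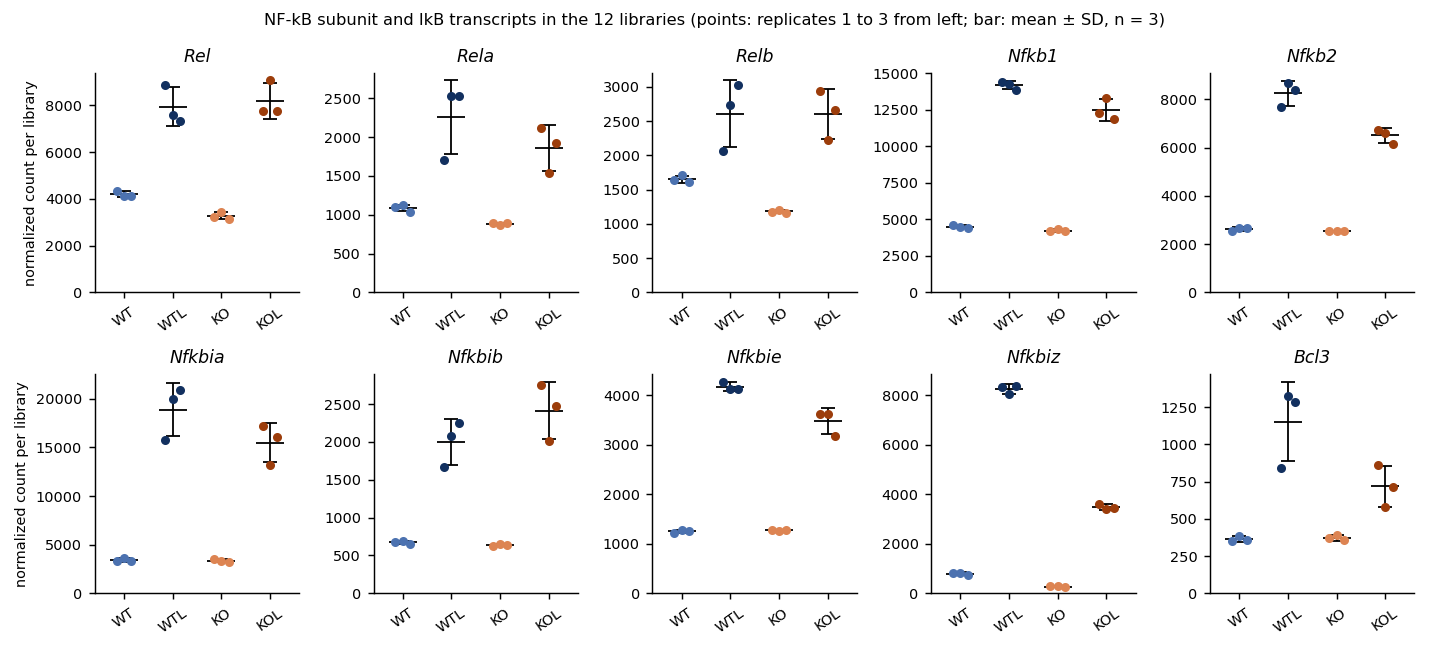
Normalized counts of the 10 genes in each of the 12 libraries (points, replicates 1 to 3 from left to right), with the mean and SD of each group of 3; vertical axes are linear, start at 0 and differ between genes. Nfkbiz lies at 741 to 839.6 in WT, 8034 to 8381 in WTL, 252 to 280.4 in KO and 3409 to 3619.6 in KOL, whereas Nfkb1 differs little between WT (4391 to 4593) and KO (4182 to 4316).

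All 10 genes also rose with LPS in CTCF-deficient cells, where 33.6% of all genes tested were higher and 33.9% were lower in KOL than in KO (20.5% and 52.2% with library totals). For 9 of the 10, all but Bcl3, the rise exceeded 2-fold (15.1% of all genes tested). The median log2 fold change was 1.40 (range 0.94 to 3.69), and that of all genes was -0.02.

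Nfkbiz again rose most, from 279, 280.4 and 252 to 3619.6, 3409 and 3439 normalized counts, 12.9-fold (log2 fold change 3.69, SE 0.08, adjusted p = 4.45e-14). Nfkbia rose from 3496, 3276 and 3246 to 17162, 13225 and 16079.6 (log2 fold change 2.21, SE 0.11, adjusted p = 4.87e-10). Nfkbib rose from 626, 653 and 642 to 2754, 2014 and 2471 (log2 fold change 1.91, SE 0.12, adjusted p = 4.37e-09). KOL replicate 2 was the low library of Nfkbia and Nfkbib. Nfkb1 rose by 1.56, Nfkbie by 1.45, Nfkb2 by 1.35, Rel by 1.32, Relb by 1.14 and Rela by 1.07 on the log2 scale. Bcl3 rose least, from 372, 394 and 355 to 859, 580.3 and 713 (log2 fold change 0.94, SE 0.16, adjusted p = 0.000119). In normalized counts the groups overlapped for none of the 10 genes (the share over all genes was not counted), but in TPM those of Bcl3 did (25.3 to 32.2 in KO and 32.0 to 47.4 in KOL). Each rise was called in every alternative fit run. With WTL replicate 1 and KOL replicate 2 both left out, Bcl3 rose by 1.07 and Nfkbiz by 3.70, and the other 8 lay between these values.

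Without LPS, CTCF-deficient cells had less RNA of Nfkbiz, Relb and Rel. Thus 3 of the 10 genes were lower in KO than in WT, compared with 22.4% of all genes tested, and 0 were higher, compared with 22.2% (29.3% lower and 16.7% higher with library totals). At an unadjusted p under 0.05 in edgeR, and by DESeq2 and limma on log2(TPM + 1), the number higher was also 0. The median log2 fold change of the 10 was -0.08 and that of all genes -0.01. Rela, at an unadjusted p of 0.05004 in edgeR and a nominal 95% interval of -0.57 to -0.03, did not pass, and the others lay within 0.09 of 0 on the log2 scale. With limma on log2(TPM + 1), Nfkb1 was also called (-0.22, adjusted p = 0.0186).

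Nfkbiz differed most, with 252 to 280.4 normalized counts in KO against 741 to 839.6 in WT, 2.94-fold lower (log2 fold change -1.55, SE 0.07, adjusted p = 7.89e-10). No other gene of the family had a difference of this size. Relb was at 1176, 1203 and 1166 in KO, 1.40-fold lower than in WT (log2 fold change -0.48, SE 0.12, adjusted p = 0.00534). Rel was at 3243, 3449 and 3136 in KO, 1.28-fold lower (log2 fold change -0.36, SE 0.09, adjusted p = 0.0036). The libraries of KO and WT did not overlap for these 3 genes, and each call held in all 11 alternative fits and all 6 fits without 1 library. Lack of overlap alone does not set them apart, since Nfkb1, which was not called (adjusted p = 0.303), did not overlap between KO and WT either. Cell type markers moved with this comparison. Of the dendritic cell markers, Itgax was at 356 to 374 TPM in WT and 598 to 612 in KO, H2-Ab1 at 1636 to 1812 and 890 to 947, and Flt3 at 3.57 to 3.73 and 0.63 to 1.11. Of the neutrophil markers, Ngp was at 5.87 to 8.29 TPM in WT and 0.26 to 0.42 in KO, Camp at 2.72 to 3.32 and 0 to 0.31, S100a9 at 127 to 129 and 35.5 to 41.1, and S100a8 at 233 to 254 and 154 to 182. Of the monocyte markers, Ly6c2 was at 66.1 to 73.1 TPM in WT and 221 to 228 in KO, Csf1r at 340.4 to 369 and 500.3 to 517, and Cd14 at 188 to 201 and 111 to 118. The part of these cells in the differences was not tested.

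Rela was at 888, 871 and 898 in KO and did not overlap with WT either (log2 fold change -0.30, SE 0.14, adjusted p = 0.098). Its adjusted p was 1.39e-05 with only the 6 libraries of KO and WT in the fit and 0.000165 without WTL replicate 1 and KOL replicate 2, with the difference unchanged at -0.30 in both; with no filter it was 0.0100. The shared estimate of the spread in the 12-library fit includes the LPS libraries, in which Rela varied more (SD 474 normalized counts in WTL and 299.9 in KOL) than in WT (43.5) and KO (13.6). Nfkb1, Nfkb2, Nfkbia, Nfkbib, Nfkbie and Bcl3 had adjusted p-values of 0.303 to 0.889. With an offset for GC content and length, 7 of the 10 genes were lower, compared with 25.5% of 13999 genes in that fit, with Rela at -0.43, Nfkb2 at -0.27, Nfkbib at -0.24 and Nfkb1 at -0.13 added to the 3. A p above the threshold does not show that the levels were equal.

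With LPS, 6 of the 10 genes were lower in KOL than in WTL, compared with 23.3% of all genes tested, and 0 were higher, compared with 21.4%. At an unadjusted p under 0.05 in edgeR, 1 was higher, Nfkbib, and DESeq2 and limma on log2(TPM + 1) called 0. They were both nuclear IκB genes, both precursor genes, Nfkbia and Nfkbie, and not Rel, Rela or Relb. The median of the 10 was -0.27 and that of all genes -0.03.

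Nfkbiz was at 3409 to 3619.6 in KOL and 8034 to 8381 in WTL, 2.37-fold lower without overlap (log2 fold change -1.24, SE 0.07, adjusted p = 4.04e-09). Bcl3 was at 580.3, 713 and 859 in KOL and at 844, 1284 and 1324 in WTL (log2 fold change -0.68, SE 0.15, adjusted p = 0.00224). WTL replicate 1 of Bcl3 lay within the KOL range, and with it and KOL replicate 2 left out the difference was -0.73 (adjusted p = 2.39e-07). Nfkb2 was at 6153, 6611 and 6741 in KOL, all below the WTL libraries (log2 fold change -0.34, SE 0.07, adjusted p = 0.00073). Nfkbie was at 3168, 3627 and 3629, also all below WTL (log2 fold change -0.27, SE 0.07, adjusted p = 0.00462), although the call was lost with only the 6 LPS libraries in the fit (adjusted p = 0.0848). Without the same pair of libraries, Nfkb2 was at -0.41 and Nfkbie at -0.28 (adjusted p = 0.000971), and Nfkbiz at -1.22.

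The differences of Nfkb1 and Nfkbia were close to the threshold. Nfkb1 was at 11850.2, 12281 and 13287 in KOL and at 13864 to 14436 in WTL (log2 fold change -0.19, SE 0.06, adjusted p = 0.0243). Its call was lost without WTL replicate 2 (adjusted p = 0.0655), KOL replicate 1 (0.073) or KOL replicate 3 (0.0904), and with no filter (0.166), the 6 LPS libraries alone (0.232) or library totals (0.0747). Without WTL replicate 1 and KOL replicate 2 together it was -0.22 (adjusted p = 0.00138). Nfkbia overlapped between the groups, since KOL replicate 1 (17162) exceeded WTL replicate 1 (15779), and its log2 fold change was -0.29 (SE 0.11, adjusted p = 0.046). Its call was lost without WTL replicate 2 (log2 fold change -0.25, adjusted p = 0.137), WTL replicate 3 (-0.20, 0.172), KOL replicate 2 (-0.18, 0.145) or KOL replicate 3 (-0.31, 0.0691), and with the 6 LPS libraries alone (-0.25, 0.203), library totals (-0.25, 0.0901), a minimum of 10 counts (-0.27, 0.0566) or the replicate block (-0.28, 0.0726). Without WTL replicate 1 and KOL replicate 2 together it was -0.30 (adjusted p = 0.000559), and in the other fits the call stood. Of the neutrophil markers, Ngp was at 7.99 to 12.5 TPM in WTL and 0.58 to 0.69 in KOL. S100a9 was at 122 to 174 and 71.4 to 75.2 TPM in the same groups. S100a8 overlapped between them (205 to 279 and 206 to 255 TPM). Ly6g lay the other way, at 0.13 to 0.29 TPM in WTL and 0.95 to 1.81 in KOL. Some dendritic cell and monocyte markers also differed between WTL and KOL, in both directions. The part of these cells in the differences was not tested.

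The remaining genes showed no call in this comparison. Rel had means of 7928 ± 837 in WTL and 8183 ± 768 normalized counts in KOL, with a log2 difference of 0.05 and an interval of -0.12 to 0.21. Relb had means of 2612 ± 492 and 2609 ± 362, a difference of -0.00 with an interval of -0.24 to 0.24. Both genes were lower in KO than in WT before LPS, and after it their intervals covered 0; without WTL replicate 1 and KOL replicate 2 the differences were 0.05 and -0.04. Rela had a log2 fold change of -0.28 (adjusted p = 0.114), which passed without WTL replicate 1 (-0.44, adjusted p = 0.00324), without WTL replicate 1 and KOL replicate 2 together (-0.32, adjusted p = 0.000369), with the GC and length offset (-0.44, 0.000422) and with no filter (-0.27, 0.0202). Nfkbib had the largest positive difference of the 10, 0.27 (SE 0.12, adjusted p = 0.0702), which passed without WTL replicate 3 (0.37, adjusted p = 0.0261), without KOL replicate 2 (0.39, adjusted p = 0.00601), and without WTL replicate 1 and KOL replicate 2 together (0.27, adjusted p = 0.00293).

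**Figure D4:**
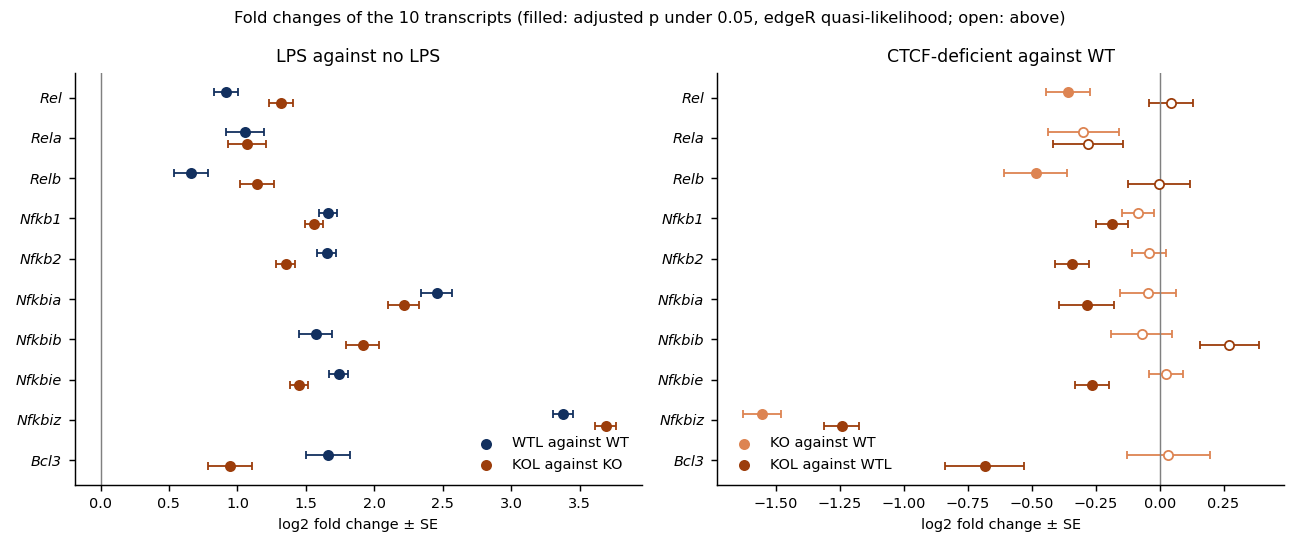
Log2 fold changes with SE (horizontal axes) of the 10 genes with LPS (left: WTL against WT and KOL against KO) and with CTCF depletion (right: KO against WT and KOL against WTL); filled points have an adjusted p under 0.05 by edgeR's quasi-likelihood test and open points do not. All points on the left lie above 0, from 0.66 to 3.69, and on the right Nfkbiz lies apart at -1.55 and -1.24.

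Whether the LPS response itself differed between genotypes was tested as the interaction, the log2 LPS fold change in KO minus that in WT. At an adjusted p under 0.05, 8.7% of all genes tested had a larger response in CTCF-deficient cells and 8.75% a smaller one, and of the 10 genes 2 had a larger and 3 a smaller response. With library totals as the scale, these shares of all genes were 13.3% and 4.9%. Rel gained 0.41 (SE 0.12, adjusted p = 0.0337) and Nfkbiz 0.31 (SE 0.10, adjusted p = 0.0451). For both, the level before LPS was lower in KO than in WT. Bcl3 had a difference of -0.72 (SE 0.22, adjusted p = 0.0402), Nfkb2 of -0.30 (SE 0.09, adjusted p = 0.0411) and Nfkbie of -0.29 (SE 0.09, adjusted p = 0.0479). For these 3, KO and WT were not called different before LPS. The sizes depended on the scale, since with limma on log2(TPM + 1) Bcl3 was at -0.36 (adjusted p = 0.383), and with library totals Bcl3 was at -0.58, Nfkb2 at -0.16 and Nfkbie at -0.15 (adjusted p = 0.0921, 0.288 and 0.341). Relb had the largest positive value, 0.48 (SE 0.17), but did not pass (adjusted p = 0.0716), and DESeq2 called it (adjusted p = 0.036). Rela had a difference of 0.02, with an interval of -0.36 to 0.40.

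All 5 calls lay close to the threshold and none held in every alternative. Of 12 fits without 1 library each, Rel was called in 8, Nfkbiz in 5, Bcl3 in 3, Nfkb2 in 2 and Nfkbie in 1, with adjusted p-values of at most 0.0966 for Rel, 0.144 for Nfkbiz, 0.128 for Bcl3, 0.224 for Nfkb2 and 0.232 for Nfkbie. The 4 libraries without which the call of Rel was lost were WTL replicates 2 and 3 and KO replicates 1 and 3, at differences of 0.35 to 0.40. The signs of these 5 differences were the same in all 12 fits. With WTL replicate 1 and KOL replicate 2 both left out, all 5 were called (Rel 0.41, Nfkbiz 0.34, Nfkb2 -0.36, Nfkbie -0.31 and Bcl3 -0.76, adjusted p of 2.83e-05 to 0.00918), and Relb (0.44, adjusted p = 0.000712), Nfkbib (0.34, adjusted p = 0.00885) and Nfkbia (-0.25, adjusted p = 0.0232) were called as well, where 14.3% of 14331 genes had a larger and 16.3% a smaller response. Since the pair was picked by the deviations of these same genes, the calls of this fit add no support.

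**Figure D5:**
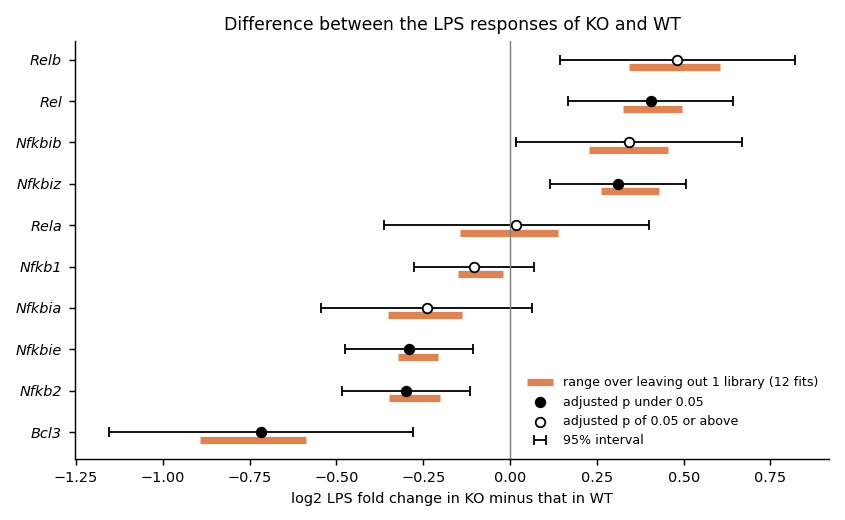
Log2 LPS fold change in KO minus that in WT (horizontal axis) for the 10 genes, with the nominal 95% interval of 1.96 SE on either side (black line) and the range over 12 fits without 1 library each (orange bar). Filled points have an adjusted p under 0.05. The values run from -0.72 for Bcl3 to 0.48 for Relb, and only the leave-one-out range of Rela crosses 0.

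RSEM also gave the mean length of the transcripts to which a gene's reads were assigned, a value that moves when the mixture of transcripts moves. For Nfkb2, which has 8 listed transcripts, it was 2974 to 3006 bases in WT and 2291 to 2563 in WTL, and 3033 to 3067 in KO and 2657 to 2781 in KOL. The LPS libraries were shorter than the unstimulated libraries in both genotypes, and those of WTL were shorter than those of KOL. Bcl3 moved the other way in WT, from 1215 to 1327 bases to 1447 to 1568 bases, and overlapped between KO (1335 to 1534) and KOL (1399 to 1451). Rel has a single listed transcript of 7466 bases. The group means of Nfkbib, Nfkbie, Nfkbiz and Relb moved little, for example 3536 bases in WT and 3583 in WTL for Nfkbiz. Nfkbia was at 1342 to 1444 bases in WT and 1488 to 1516 in KO, and overlapped between WTL (1379 to 1410) and KOL (1395 to 1469). Its TPM was 272 to 295 in WT and 227 to 241 in KO, whereas its log2 fold change in counts was -0.05. Mean lengths in WT, WTL, KO and KOL were 2195, 2279, 2095 and 2378 bases for Rela. For Nfkb1 they were 2584, 2547, 2648 and 2527. Transcript assignment by RSEM is an estimate, and Nfkb2 also overlaps Psd on the opposite strand, whose mean count was 169 to 383 over the groups. Nfkbib overlaps Sirt2 on the opposite strand, whose mean count was 1310 to 1468 over the groups, where that of Nfkbib was 771 in WT, 1756 in WTL, 690.3 in KO and 2199 in KOL, and also Ccer2 (1.22 to 19.1 counts on average). Nfkb1 overlaps a short model on its own strand (7.33 to 37.7 counts on average), and Bcl3 overlaps 2 antisense models (at most 4.67 counts on average). The sources used here do not state RSEM's strand setting, so reads in these overlaps may be divided wrongly.

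The 10 genes lie on 7 chromosomes in the GENCODE M21 annotation of mm10. The nuclear IκB gene Nfkbiz (ENSMUSG00000035356.17) lies on the minus strand of chromosome 16 from 55811375 to 55838899, and Rel (ENSMUSG00000020275.9) on the minus strand of chromosome 11 from 23736847 to 23770970. Relb (19606217 to 19629438) and Bcl3 (19808462 to 19822770) lie on the minus strand of chromosome 7, with 179023 bases and other genes between them. Nfkbib lies farther along it, from 28758251 to 28767512. Of Relb and Bcl3, Relb alone was lower in KO than in WT, and Bcl3 alone was lower in KOL than in WTL. The difference between the genes was not tested. Rela (5637483 to 5648130) and Nfkb2 (46304320 to 46312385) lie on chromosome 19, Nfkb1 on chromosome 3, Nfkbia on chromosome 12 and Nfkbie on chromosome 17.

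The other genes of the pathway were followed as lists. IKK phosphorylates IκB proteins and has 3 genes here. Ikbkb, the catalytic subunit of the classical pathway, rose with LPS by 0.84 in WT and 0.62 in KO on the log2 scale, whereas Ikbkg, the regulatory subunit NEMO (0.10 and -0.08), and Chuk, which encodes IKKα (0.07 and -0.17), did not pass. Ikbkg and Ikbkb were lower in KO than in WT (-0.31 and -0.19) and in KOL than in WTL (-0.48 and -0.40). Of 6 kinases and adaptors that activate IKK, 2 rose and 2 fell in WTL and 3 rose and 1 fell in KOL. Of all genes tested, 30.0% rose and 30.2% fell in WTL, and 33.6% rose and 33.9% fell in KOL. Tab1, an adaptor of the kinase TAK1, was the gene of this list that differed most between genotypes, at -2.42 in KO against WT and -1.47 in KOL against WTL. Map3k14, which encodes NIK, the kinase of the alternative pathway, fell by 1.20 in WTL against WT, was at -0.21 in KOL against KO (adjusted p = 0.111), and its response differed between genotypes by 0.99 (adjusted p = 0.000776).

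Both other IκB-like genes rose with LPS. Nfkbid, a further nuclear IκB gene, rose by 0.75 in WT and 1.27 in KO, and it was lower in KO than in WT by a log2 fold change of -0.73. Nfkbil1 rose by 1.84 and 1.54, and it was higher in KO than in WT by 0.32 (adjusted p = 0.00871). In the ligase that degrades IκB, Fbxw11, a beta-TrCP gene, rose by 1.295 and 1.46, Rbx1 rose by 0.42 and 0.59, and Btrc, the other beta-TrCP gene, was at -0.43 (adjusted p = 0.066) and fell by 0.69. Cul1 was at -0.04 and -0.02, and Skp1 was not among the genes matched by symbol. In the complex that degrades NIK, Traf2 (0.92 and 0.80), Birc3 (0.98 and 0.59) and Birc2 (0.79 and 1.17) rose in both genotypes, and Traf3 was at 0.12 and -0.08.

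Of 11 feedback inhibitors of NF-κB signalling, 8 rose and 2 fell in WTL (median 0.71, all genes -0.02), and 7 rose and 2 fell in KOL (median 0.55). For this and the next list, the shares of all genes tested were 30.0% higher and 30.2% lower in WTL. In KOL they were 33.6% and 33.9%. Tnfaip3, which encodes the deubiquitinase A20, rose by 2.47 in WT and 2.59 in KO, and Pdlim2 fell by 0.90 and 1.63. In KO against WT, 3 of the 11 were higher and 2 lower (median 0.03, with 22.2% and 22.4% of all genes called), and in KOL against WTL, 2 were higher and 6 lower (median -0.20, with 21.4% and 23.3%), with Tnfaip2 lowest at -1.17. All 25 target genes of NF-κB in a textbook list, which shares Tnfaip3 with the inhibitors, rose in both genotypes (median 3.26 in WTL and 4.15 in KOL), led by Il6, at 7.97 and 9.53. Each fold starts from the unstimulated level of its own genotype, so a larger fold need not give a higher level with LPS. For Il6, the paper reports less RNA in CTCF-deficient than in WT cells after LPS. Of these 25, 18 were lower and 4 higher in KO than in WT (median -0.74), and 14 were lower and 5 higher in KOL than in WTL (median -0.42). Their LPS response was larger in CTCF-deficient cells for 14 and smaller for 5, compared with 8.7% and 8.75% of all genes tested (13.3% and 4.9% with library totals).

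The genes whose log2 normalized counts followed each member most closely over the 12 libraries were found as a description. The 12 points are 6 LPS and 6 unstimulated libraries, which did not overlap for any of the 10 genes, so each r spans both clusters. Nfkbiz was followed most closely by Fgl2 (r = 0.999), Plk2 and Rab7, Rel by Jak2 (r = 0.998), Ncoa7 and Eif2ak2, and Relb by Ier3 (r = 0.992), Nuak2 and Nrbp1. Nfkbia was followed by Surf4, Tapbp and Exoc3l4 (r = 0.998 to 0.999), Nfkb1 by Ccnd2, Agrn and Parp9 (r = 0.998 to 0.999), and Nfkb2 by Cct3, Actn1 and Pik3r5 (r = 0.997 to 0.998). Rela was followed by Grina, Csnk1d and Gpr132 (r = 0.990 to 0.996), Nfkbib by Rftn1, Rnf19b and Ttc39c, Nfkbie by Itga5, N4bp1 and Trim26, and Bcl3 by Poldip3, Tmbim6 and Ilrun (r = 0.984 to 0.989). The number of genes with r over 0.95 was 907 for Nfkb1, 714 for Nfkbiz, 208 for Relb and 89 for Bcl3.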

How the data were processed

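Per the labels and the study's methods, reads were trimmed with Trim Galore, mapped by STAR to mm10 and passed to RSEM. The authors deposited expected counts (estimated counts, which need not be whole) and TPM, which their pipeline corrects for transcript length, for 55335 genes in 12 libraries. The labels and the methods differ on the kit (ribosomal depletion or poly(A) selection). The labels do not say that replicates came from separate animals, so p-values measure the spread between these samples. The 10 genes and the lists were chosen with earlier results of these data known.

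Expected counts were rounded, filtered by group with filterByExpr (14008 genes kept) and normalized by TMM in edgeR 4.0.16 (R 4.3.3). A single quasi-likelihood fit held the 4 groups and no covariate, and adjusted p-values are Benjamini-Hochberg values over 14008 genes at a threshold of 0.05. Intervals are nominal 95% intervals of 1.96 SE on either side of the estimate. They are narrower than the quasi-likelihood test implies, so an interval can exclude 0 where the unadjusted p is above 0.05. Fold changes from limma are on the log2(value + pseudocount) scale. Depth was 12769773 to 16586334 counts per library, with at least 272 counts for each of the 10 genes.

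All 10 genes were named in every comparison; from each list, the genes with the highest and lowest change or every gene of a short list, and the 3 genes most correlated with each of the 10. The fits were tested on simulated counts. The alternatives were DESeq2 1.42.0, edgeR with DESeq2's size factors, no filter on counts, a minimum of 10 counts in every library, only the 6 libraries compared, the replicate block, limma 3.58.1 on TPM with a pseudocount of 1 or 0.1, the study's fold cutoffs, and leaving out each library. Library totals as the scale, an offset for GC content and length, and leaving out WTL replicate 1 with KOL replicate 2 were chosen after seeing the data. Promoter windows came from RefSeq (GRCm38.p6) and positions from GENCODE M21.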

Additional observations from a re-analysis of the deposited data

Results flagged for a closer look

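The log2 LPS response in KO differed from that in WT, by the interaction test of edgeR with Benjamini-Hochberg adjustment, for 5 of the 10 genes. The difference was 0.41 for Rel (adjusted p = 0.0337), 0.31 for Nfkbiz (adjusted p = 0.0451), -0.30 for Nfkb2 (adjusted p = 0.0411), -0.29 for Nfkbie (adjusted p = 0.0479) and -0.72 for Bcl3 (adjusted p = 0.0402). Mean normalized counts of Rel were 3276 in KO and 8183 in KOL, and 4203 in WT and 7928 in WTL. Nfkbiz rose from 270.5 to 3489 in KO and from 795 to 8254 in WT, so its level stayed lower in CTCF-deficient cells after LPS although its fold was larger. Bcl3, Nfkb2 and Nfkbie were not called different between KO and WT and were lower in KOL than in WTL, with Bcl3 at 374 in KO, 718 in KOL, 365 in WT and 1151 in WTL. The calls of all 5 were lost when some single libraries were left out.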

How the results depend on the processing

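Of 900 values of the 10 genes under the alternatives, 759 kept their direction and their side of the threshold, 78 lost a call, 30 gained one and 33 changed sign; no value called in the reported fit changed sign. The LPS rises held for all 10 genes in KO and for 9 in WT. The number over 2-fold in KOL against KO fell from 9 to 5 with limma on log2(TPM + 1), limma on log2(TPM + 0.1) and library totals as the scale, which moved the median of all genes. Genes lower in KO than in WT were 3, but 4 with no filter, the 6 libraries compared or either limma fit, 4 without WTL replicate 1 and KOL replicate 2, 5 with library totals, 7 with the GC and length offset and 2 with a fold cutoff of 1.3. Genes higher in KOL than in WTL were 0, but 1 with no filter and 1 without WTL replicate 1 and KOL replicate 2, and 0 to 1 when single libraries were left out. Genes lower in KOL than in WTL were 6, but 5 with the replicate block or a minimum of 10 counts, 4 with library totals, 3 in the fit of 6 libraries, 2 with a fold cutoff of 1.5, 7 with the offset, 7 without the same pair of libraries and 4 to 7 when single libraries were left out. For the interaction, genes with a larger response were 2, but 1 with limma on log2(TPM + 1), 0 with log2(TPM + 0.1), 4 with the GC and length offset, 4 without that pair, 3 with DESeq2 or library totals, and 0 to 4 when single libraries were left out. Genes with a smaller response were 3, but 1 with no filter, 1 with either limma fit, 0 with library totals, 2 with the offset or DESeq2's size factors, 4 without that pair, and 0 to 3 when single libraries were left out.

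Replicate numbers did not pair the libraries: over 18 pairs of same-numbered libraries, deviations from the group means correlated at -0.29 to 0.11. With the replicate block, the interaction called 1 gene as larger and 0 as smaller, with adjusted p-values of 0.0573 for Nfkbiz, 0.064 for Nfkb2, 0.0702 for Nfkbie and 0.0726 for Bcl3. The call of Nfkbia in KOL against WTL was lost (adjusted p = 0.0726). Relb there had a log2 fold change of 0.00262 and was not called (adjusted p = 0.989).

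The signs that changed belonged to differences near 0. In KO against WT, Nfkbie (0.0251) was -0.0592 and -0.0602 with limma on log2(TPM + 1) and log2(TPM + 0.1), -0.0804 with library totals, -0.0976 with the offset and -0.0259 to 0.0289 without single libraries, and Bcl3 (0.0333) was -0.230, -0.237, -0.0719, -0.0928 and -0.0262 to 0.0701 in the same order. In KOL against WTL, Relb (-0.00244) was 0.00762 with no filter, 0.0125 with at least 10 counts, 0.0300 with 6 libraries, 0.0291 with totals and -0.144 to 0.119 without single libraries, and Rel (0.0458) was -0.0347 to 0.136 without them. In the interaction, Rela (0.0184) was -0.0401 and -0.0391 with the limma fits, -0.0125 with the offset, -0.0254 without both libraries and -0.144 to 0.138 without single ones, and Nfkb1 (-0.103) was 0.0185 and 0.0192 with the limma fits and 0.0335 with totals. The causes were not tested.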

Other observations

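The genes beside the 10 were looked at after their values were seen, out to 250 kb. Nxpe3 is the next gene model upstream of Nfkbiz, 1053 bases away on chromosome 16 (55839953 to 55895285, mm10), on the same strand. It was higher in KO than in WT, with means of 72.6 and 11.1 normalized counts (log2 fold change 2.70, SE 0.21), where Nfkbiz was lower. Cep97, which encodes a centrosomal protein and lies 60988 bases from Nfkbiz, was also higher in KO (114 against 47.8, log2 fold change 1.26, SE 0.17). Of the 9 genes tested within 250 kb of Nfkbiz, 3 were higher and 2 lower in KO than in WT, near the 22.2% and 22.4% of all genes tested. Between Relb and Bcl3 lies Bcam, an adhesion molecule of the immunoglobulin family, 37445 bases from Bcl3, with means of 544 normalized counts in KO and 53.3 in WT (log2 fold change 3.35, SE 0.14). In KOL against WTL, Nxpe3 was higher by 1.37 and Bcam by 2.42 on the log2 scale. These values are descriptions of genes chosen for their differences.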
